A study of Mus musculus with 12 samples.

Results

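Serotonin receptors are described here in the striatum of mice with a unilateral loss of dopamine that were given L-DOPA. The 10 receptor genes *Htr1a*, *Htr1b*, *Htr1d*, *Htr2a*, *Htr2c*, *Htr3a*, *Htr4*, *Htr5a*, *Htr6* and *Htr7* were found by symbol among the 52169 gene symbols of the transcript table, and each is represented by the transcript with its highest mean level. All mice were C57BL/6J and all were hemiparkinsonian: 6-OHDA, a toxin of dopamine neurons, was injected into the right medial forebrain bundle after desipramine, which protects noradrenergic neurons, and 2 weeks of recovery followed. Every mouse then received L-DOPA (10 mg/kg, the precursor of dopamine) with benserazide (7.5 mg/kg, a blocker of its conversion in the periphery), either as a single injection (acute) or on 9 consecutive days (chronic), and punches of striatum were collected 1 hour later. The 4 groups are the acute unlesioned, acute lesioned, chronic unlesioned and chronic lesioned striatum, with 3 libraries each. All groups thus carried L-DOPA, and no vehicle group was analysed here. The labels count 12 mice for the 12 libraries, whereas the study describes the unlesioned side as the control within each mouse.

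Serotonin reaches the striatum through the axons of raphe neurons, and its receptors there sit on spiny projection neurons, on interneurons and on incoming axons. The receptors of the HTR1 and HTR5 families couple to Gi/o proteins and lower cAMP, those of the HTR2 family couple to Gq and phospholipase C, and HTR4, HTR6 and HTR7 couple to Gs and raise cAMP. HTR3 is the exception, an ion channel built of subunits. When dopamine axons are lost, serotonin axons can take up L-DOPA and release dopamine made from it, and HTR1A and HTR1B on these axons restrain that release, which is why this family is studied in L-DOPA-induced dyskinesia. The mRNA of receptors that sit on raphe axons is made in the midbrain and is not measured in striatal tissue.

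The libraries held between 87695043 and 173116525 counts over all transcripts, so a gene with 3 counts had a level of 0.0171 to 0.0347 CPM (counts scaled to the TMM-normalized library total). Markers of other tissue varied between the punches. The summed level of 6 markers of cortical glutamatergic neurons ranged from 13.0 to 30.3 CPM in the acute unlesioned, from 1.79 to 15.7 in the acute lesioned, from 5.24 to 41.4 in the chronic unlesioned and from 1.65 to 22.6 CPM in the chronic lesioned libraries, and none of the 6 was at 0 in any library. In this sum, 4 libraries stood apart from the other 2 of their group. Replicate 1 of both lesioned groups was high and replicate 2 of the chronic unlesioned group was low, and these are the 3 libraries left out together below. Replicate 1 of the acute unlesioned group was also high, with 30.3 against 13.7 and 13.0 CPM, and the fits of its group were repeated without it as well. Replicate 2 of the chronic unlesioned group also held 483 CPM of 6 choroid plexus markers, against 3.75 to 11.7 CPM in the other 11 libraries. Of the dopamine receptors that mark the spiny neurons, *Drd1a* had a log2 fold change of -2.30 between lesioned and unlesioned striatum after acute and of -1.32 after chronic L-DOPA, and each of the 5 markers of D2 spiny neurons passed the test as higher after acute L-DOPA. All 4 oligodendrocyte and 3 of 4 microglial markers were lower in the chronic than in the acute lesioned striatum. The 3 markers of serotonergic cell bodies summed to 0.0799 to 0.447 CPM, and *Slc6a4*, the serotonin transporter, held 0 to 3 counts per library.

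The receptor genes differed widely in level. Per kilobase of transcript, *Htr1b* was the most abundant member in the acute unlesioned striatum, with 6.91 ± 0.26 CPM per kb (SD, n = 3), followed by *Htr2c* with 2.67 ± 0.24. *Htr1b* alone made up 50.2% of the summed level of the 10 members per kb there and 70.8% in the chronic lesioned striatum. *Htr2a* (1.28 ± 0.15 CPM per kb) and *Htr1d* (1.15 ± 0.17) came next, and their libraries overlapped. *Htr6* stood at 0.699 ± 0.087 and *Htr5a* at 0.303 ± 0.027, each without overlap with its neighbours in the order. The last 4 members, *Htr7*, *Htr4*, *Htr1a* and *Htr3a*, lay between 0.248 and 0.151 CPM per kb, and each overlapped the next. In the chronic lesioned striatum *Htr4* was last, at 0.0653 ± 0.020 CPM per kb, below all libraries of *Htr3a*.

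**Figure D1:**
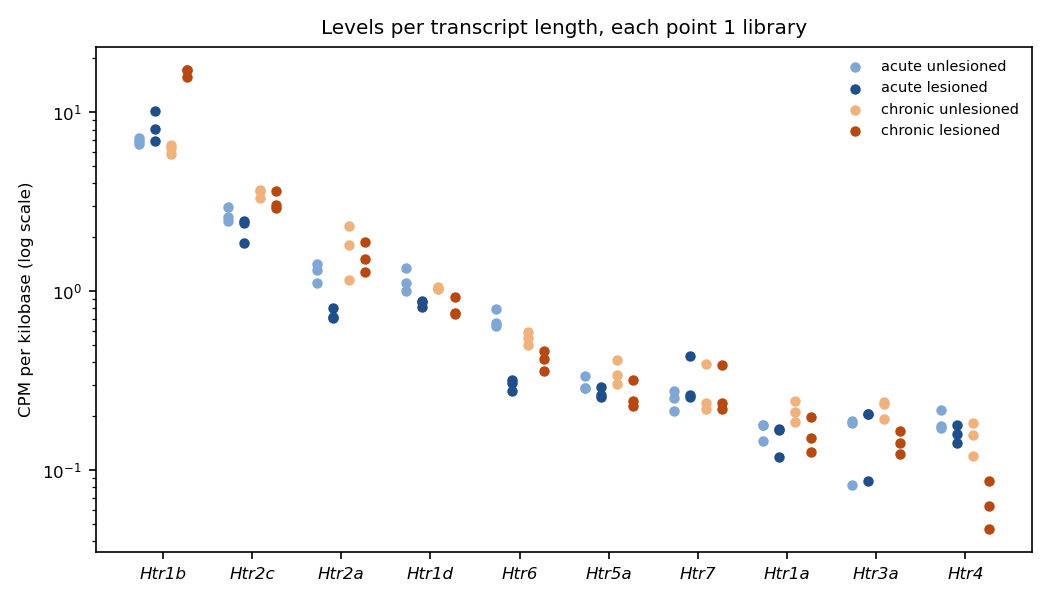
Level of each receptor gene in CPM per kilobase of transcript (vertical, log scale), with genes ordered by their mean over the groups and each point 1 library coloured by group. *Htr1b* lies at the top in every group, and *Htr4* falls to 0.0653 CPM per kb in the chronic lesioned striatum.

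Which receptor genes differed between the lesioned and the unlesioned striatum, and whether repeated L-DOPA changed that, was asked in 5 comparisons. After acute L-DOPA, 3 of the 10 members passed the test (adjusted p under 0.05), all of them lower in the lesioned striatum: *Htr6*, *Htr2a* and *Htr1d*. Over the top transcripts of all genes tested, 15.3% passed in that comparison, and the median log2 fold change was -0.19 over the members and 0.02 over all genes. After chronic L-DOPA, *Htr1b* was higher and *Htr4* lower in the lesioned striatum, 2 of 10 members beside a background of 13.7%, and the median over the members was -0.38 against -0.01 over all genes. In the lesioned striatum, *Htr1b*, *Htr2a* and *Htr2c* rose and *Htr4* fell from acute to chronic L-DOPA, 4 of 10 beside 25.6%. The same comparison in the unlesioned striatum called *Htr2c* as higher, 1 of 10 beside 3.07%. The difference between the lesion effects was called for *Htr1b* and *Htr6*, 2 of 10 beside 5.10%. All 10 members passed the filter on low counts in every comparison, and the comparisons share groups, so they are not independent of each other. These counts come from fits without pairing. With the replicate number as a block, which pairs the sides, 4 members were called after acute L-DOPA (*Htr1b* added, background 25.1%), 6 after chronic L-DOPA (*Htr1d*, *Htr3a*, *Htr5a* and *Htr6* added, background 24.2%) and 4 in the difference of lesion effects (*Htr2a* and *Htr4* added, background 13.4%).

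**Figure D2:**
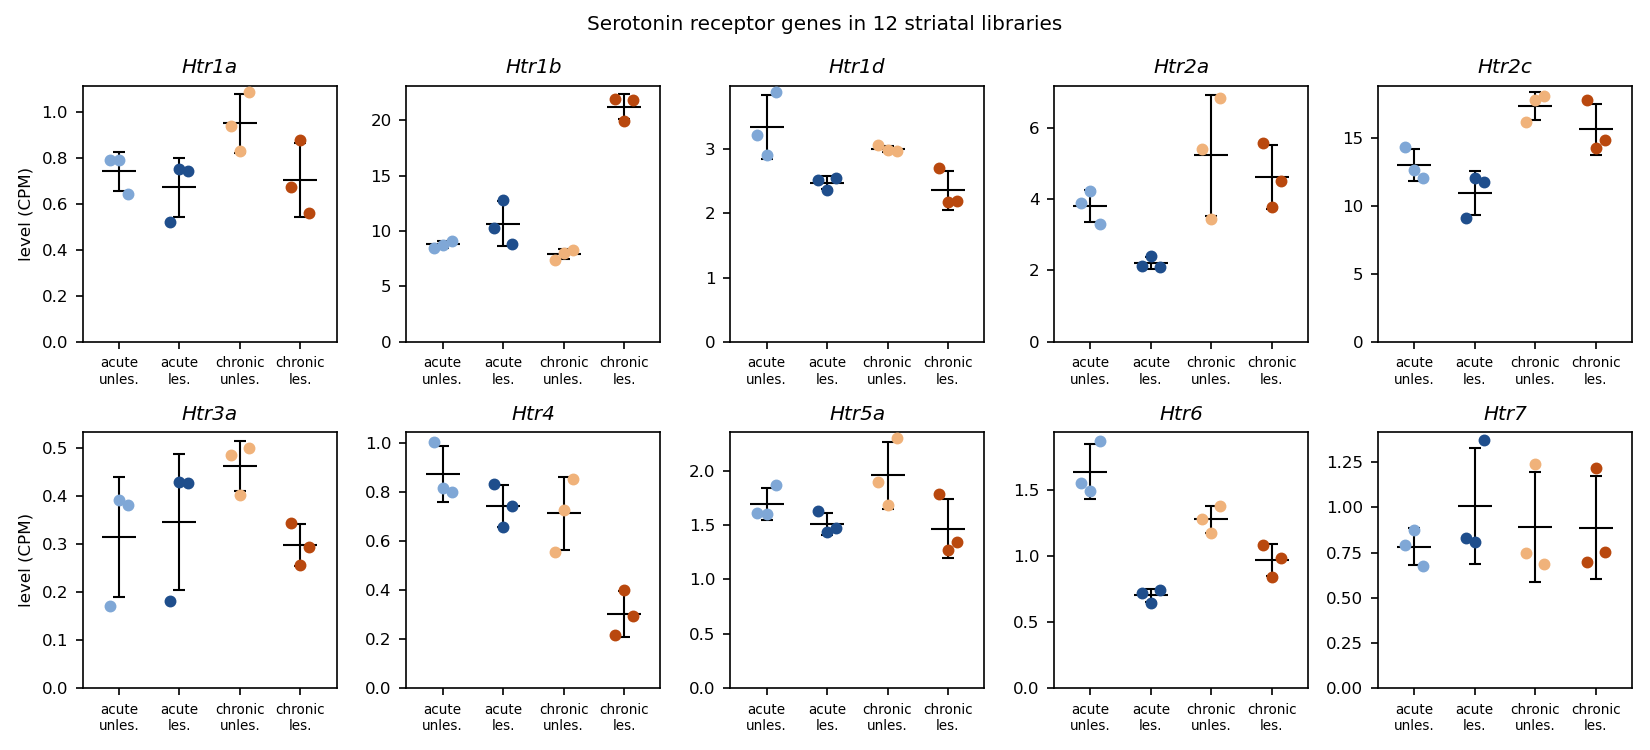
Level of each receptor gene in CPM (vertical axes from 0, 1 scale per gene) in the 4 groups, with each point 1 library and bars showing the mean and SD of 3 libraries. The chronic lesioned libraries of *Htr1b* (19.95 to 21.91 CPM) lie above all others, and those of *Htr4* (0.217 to 0.403 CPM) below all others.

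**Figure D3:**
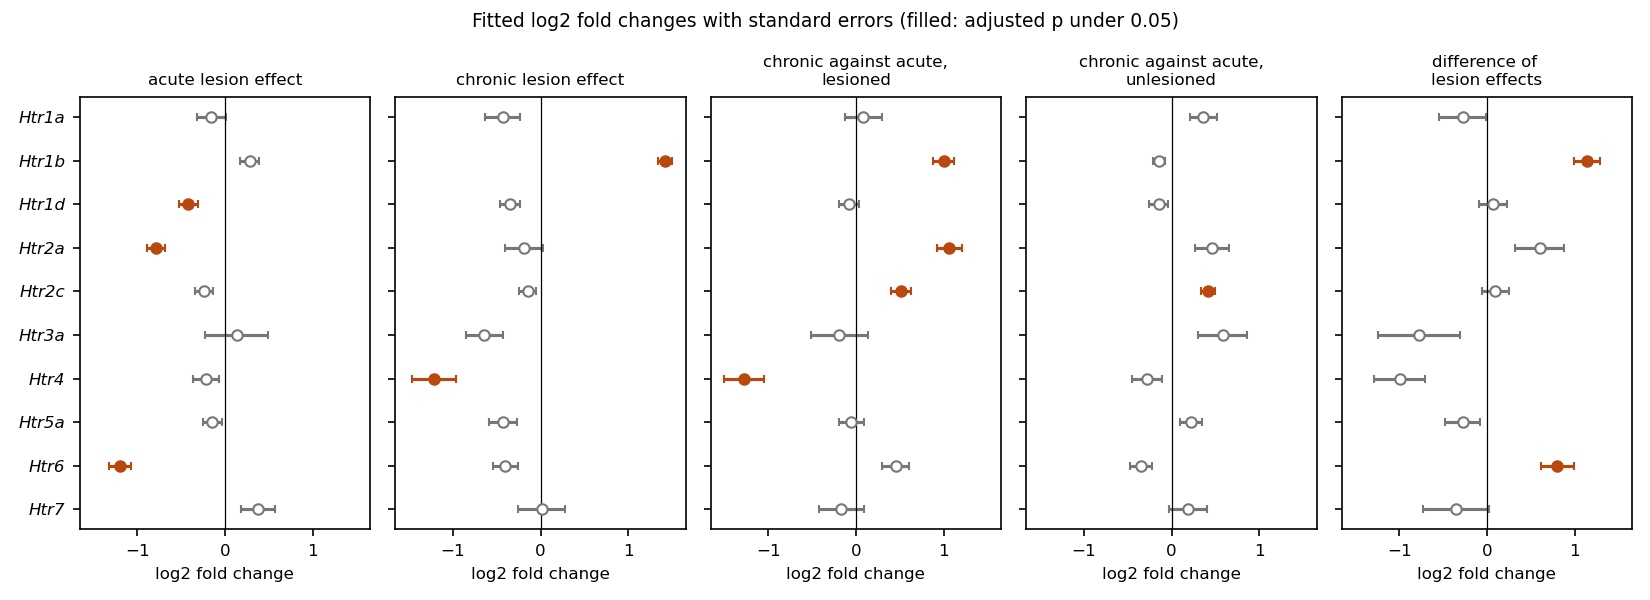
Fitted log2 fold change (horizontal) with its SE for each receptor gene in the 5 comparisons, with filled points for an adjusted p under 0.05. *Htr6*, *Htr2a* and *Htr1d* are filled on the negative side after acute L-DOPA, and *Htr1b* is filled on the positive side in 3 of the 5 panels.

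Among the Gi/o-coupled receptors, *Htr1b* was the only one called as higher on the lesioned side, after chronic L-DOPA. The gene encodes a receptor that sits on axon terminals, among them those of spiny neurons, and inhibits release. Its transcript in the table is a single exon of 1273 bases on the minus strand of chr9:81524950-81526222 (mm9). The acute unlesioned libraries held 8.46, 8.79 and 9.13 CPM and the chronic unlesioned libraries 7.42, 8.03 and 8.32 CPM. In the acute lesioned striatum the values were 10.3, 12.9 and 8.83 CPM, with replicate 3 inside the range of the unlesioned side. The chronic lesioned libraries reached 21.9, 19.95 and 21.9 CPM, each above every library of the other groups. The log2 fold change between lesioned and unlesioned striatum was 1.42 after chronic L-DOPA (standard error, SE, 0.08, adjusted p = 1.09e-06), a 2.68-fold higher level. After acute L-DOPA it was 0.28 (SE 0.11, adjusted p = 0.106). With the replicate number as a block the acute value was 0.27 (adjusted p = 0.0338), so the acute call depends on the pairing of the libraries, and without replicate 3 of the acute lesioned group it was 0.40 (adjusted p = 0.0148). The lesion effects after chronic and acute L-DOPA differed by 1.14 (log2, SE 0.15, adjusted p = 0.00031). It passed the test in each of 21 alternatives, with an adjusted p of 1.16e-10 to 0.018. Within the lesioned side the chronic level exceeded the acute one by a log2 fold change of 1.00 (SE 0.12, adjusted p = 0.000244), whereas the unlesioned sides differed by -0.15 (SE 0.07, adjusted p = 0.269). Of 5 markers of D1 spiny neurons, *Pdyn*, which encodes prodynorphin, was also highest in the chronic lesioned libraries. It held 179 to 194 CPM there and 17.3 to 39.4 CPM in the other 9. After acute L-DOPA, however, *Pdyn* was called as lower on the lesioned side (-0.76, adjusted p = 1.35e-05). The sum of the other 4 D1 markers did not separate the groups, with 98.9 to 135 CPM in the chronic lesioned libraries and 103 to 149 CPM elsewhere. In the chronic lesion effect *Pdyn* (2.50) and *Tac1* (0.64) were called as higher and *Drd1a* (-1.32) as lower, while *Isl1* (0.13) and *Eya1* (-0.60) were not called. The 7 markers of GABAergic interneurons summed to 82.4 to 93.4 CPM in the chronic lesioned and 54.0 to 72.9 CPM in the other libraries. Of these, *Th* (2.39), *Npy* (0.81) and *Sst* (0.33) were called as higher in the chronic lesion effect. *Cck* (-1.51), *Vip* (-1.11), *Pvalb* (-0.61) and *Calb2* (-0.38) had negative values and were not called. Of 4 astrocyte markers only *Gfap* was called as higher (1.97, adjusted p = 0.000445). It held 39.1 to 67.8 CPM in the chronic lesioned and 28.9 to 50.6 CPM in the acute lesioned libraries, which overlap. *Aqp4* (0.35), *Slc1a3* (-0.0048) and *Aldh1l1* (0.036) were not called. The part of these markers in the result of *Htr1b* was not tested.

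*Htr1b* overlaps a long noncoding RNA, *D430036J16Rik*, on the opposite strand. The library kit was taken not to mark the strand. Reads from the 729 shared bases at chr9:81525158-81525886 (mm9), 57.3% of the *Htr1b* transcript, were therefore treated as belonging to either gene. The noncoding RNA was therefore estimated on 529 bases of its last exon that lie outside *Htr1b*. Its counts there were the difference between a longer and a shorter of its transcript entries, taken to differ only in those bases. This gave 0.11 to 0.246 counts per base in the 12 libraries, against 0.638 to 1.87 for *Htr1b*. If the noncoding RNA covered its exons evenly, it would account for 5.25% to 16.3% of the *Htr1b* counts. With this share subtracted, the chronic lesioned libraries of *Htr1b* held 18.9 to 20.2 CPM, and the highest of the other 9 libraries 11.9 CPM. The entry of *D430036J16Rik* itself, which includes the shared exon, stood at 7.03 ± 0.42 CPM in the acute unlesioned, 8.66 ± 1.0 in the acute lesioned, 7.18 ± 0.31 in the chronic unlesioned and 16.1 ± 2.0 CPM in the chronic lesioned striatum (SD, n = 3). It was called as higher on the lesioned side after acute (0.31, adjusted p = 0.0323) and after chronic L-DOPA (1.17, adjusted p = 2.75e-05), whereas *Htr1b* was not called after acute L-DOPA.

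**Figure D4:**
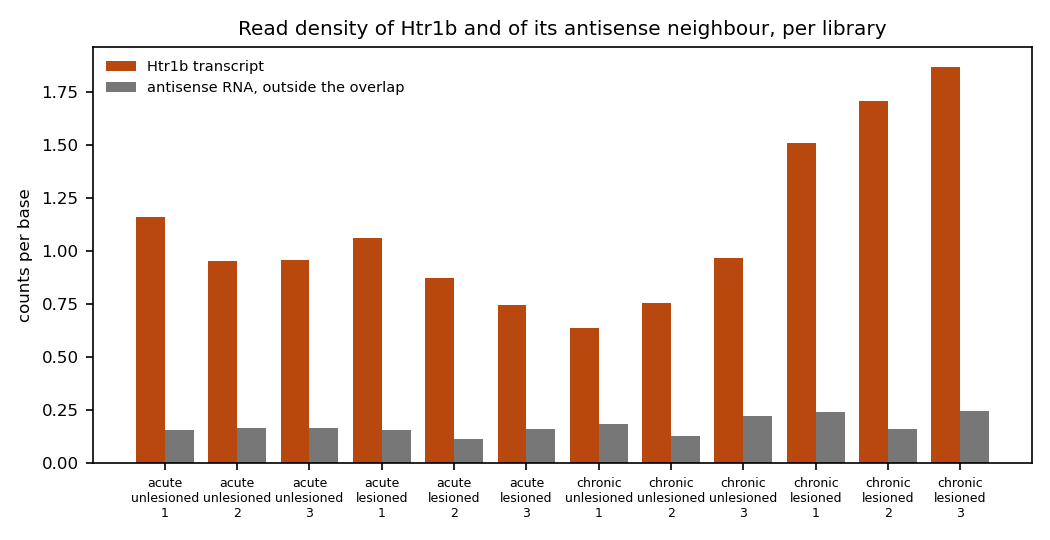
Counts per base (vertical) in each of the 12 libraries for the *Htr1b* transcript and for the last exon of the antisense RNA outside the overlap. The *Htr1b* bars of the chronic lesioned libraries reach 1.51 to 1.87 counts per base, and the antisense bars stay at or below 0.246 in all libraries.

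The promoter of *Htr1b* is shown because this gene had the largest chronic lesion effect among the members. It comprises the 250 bases before and 50 after the RefSeq start on the minus strand, taken from RefSeq for GRCm38.p6, and it occurs once in mm9, at chr9:81527390-81527689, which lies upstream of the counted transcript. Promoters were searched on both strands for the letters of 5 motifs of factors that respond to cAMP, calcium or neuronal activity: the CRE (TGACGTCA) and its half-site (TGACG, which is part of the CRE), AP-1 (TGANTCA), the Egr motif (GCGTGGGCG) and the NBRE of the Nr4a factors (AAAGGTCA). Of 32851 RefSeq promoters of the same length, 1.79% held the CRE, 20.8% the half-site, 7.81% the AP-1, 0.612% the Egr and 1.51% the NBRE letters. Any match is in capitals, and the *Htr1b* window has none, which says only that these letters are not in it.
Htr1b: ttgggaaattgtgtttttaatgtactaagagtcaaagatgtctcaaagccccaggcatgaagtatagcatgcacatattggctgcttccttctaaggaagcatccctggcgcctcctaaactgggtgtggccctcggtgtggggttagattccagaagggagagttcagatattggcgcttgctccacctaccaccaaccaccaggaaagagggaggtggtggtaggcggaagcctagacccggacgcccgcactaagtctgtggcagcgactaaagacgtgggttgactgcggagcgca

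*Htr1d*, the closest relative of *Htr1b* in function, also an inhibitory receptor of axon terminals, was lower on the lesioned side after acute L-DOPA. It lies on the plus strand of chr4:135979439-136000317 (mm9). Its levels were 3.23, 2.91 and 3.89 CPM in the acute unlesioned and 2.52, 2.36 and 2.55 CPM in the acute lesioned libraries, without overlap. The log2 fold change was -0.42 (SE 0.11, adjusted p = 0.0271). The acute call was lost without replicate 1 or 3 of the acute unlesioned group or replicate 2 of the acute lesioned group (adjusted p = 0.0596, 0.0958 and 0.0902), with the cortical marker score as a covariate over all 12 libraries (adjusted p = 0.13), and without the 4 libraries that stand apart (adjusted p = 0.0737). After chronic L-DOPA the unlesioned libraries held 2.98 to 3.06 CPM and the lesioned libraries 2.18 to 2.71 CPM, again without overlap. The fitted value was -0.35 (SE 0.11, adjusted p = 0.0695), and -0.36 with the replicate block (adjusted p = 0.0207). The difference between both lesion effects was 0.07 on the log2 scale (SE 0.16, adjusted p = 0.857).

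*Htr1a*, the receptor by which serotonin neurons restrain their own firing, and *Htr5a* were lower in abundance. *Htr1a*, a gene with a single exon, ranged from 0.522 CPM in an acute lesioned to 1.09 CPM in a chronic unlesioned library, with 59 to 161 counts. It passed the test in none of the 5 comparisons, and its log2 fold change was -0.16 after acute (SE 0.17) and -0.43 after chronic L-DOPA (SE 0.20, adjusted p = 0.191). *Htr5a* ranged from 1.27 CPM in a chronic lesioned to 2.29 CPM in a chronic unlesioned library. Its chronic lesion effect of -0.43 (SE 0.16) had an adjusted p of 0.123, and of 0.0396 with the replicate block. Without the 3 libraries that stand apart in cortical markers it was -0.68 (adjusted p = 0.0317).

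Both Gq-coupled receptors rose on the lesioned side from acute to chronic L-DOPA, and *Htr2a* was also lower on the lesioned side after acute L-DOPA. *Htr2a* (plus strand, chr14:75040647-75106666, mm9), a target of hallucinogens that is also strongly expressed in the cortex, held 3.89, 4.21 and 3.31 CPM in the acute unlesioned and 2.12, 2.39 and 2.09 CPM in the acute lesioned striatum. The log2 fold change of -0.79 (SE 0.10, adjusted p = 0.000525) corresponds to a 1.72-fold lower level. After chronic L-DOPA the unlesioned libraries spread widely, at 5.39, 3.44 and 6.83 CPM, and the lesioned libraries held 5.56, 3.78 and 4.49 CPM, inside that spread. The chronic lesion effect was -0.19 (SE 0.22, adjusted p = 0.651). In the lesioned striatum the chronic level was 2.09-fold higher than the acute level, a log2 fold change of 1.07 (SE 0.14, adjusted p = 0.000428), and all chronic libraries lay above all acute ones. That call remained in all 15 alternatives, with an adjusted p of 4.16e-10 to 0.00808. In the same comparison 3 of 5 markers of D1 spiny neurons were called as higher and 3 of 5 of D2 spiny neurons as lower. The part of these markers in the rise was not tested. The difference between the lesion effects of *Htr2a* was 0.60 (SE 0.28, adjusted p = 0.257), and 0.62 with the replicate block (adjusted p = 0.0294). A transcript on the opposite strand, AK089492, overlaps the *Htr2a* transcript and held 24 to 87 counts per library, against 207 to 1012 for *Htr2a*.

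*Htr2a* varied along with the cortical markers in the chronic groups. Within the chronic unlesioned group the library with 5.24 CPM of cortical markers had the lowest *Htr2a* level and the library with 41.4 CPM the highest. Within the chronic lesioned group the library with 22.6 CPM of cortical markers also had the highest *Htr2a* level. In the acute lesioned group, by contrast, the library with 15.7 CPM had 2.12 CPM of *Htr2a*, between the other 2 libraries. The acute unlesioned library with 30.3 CPM of cortical markers had 3.89 CPM, also between the others of its group. Of the cortical markers, 1 of 6 was called as lower on the lesioned side after acute L-DOPA, and none in the other comparisons. Their median lesion effect was nevertheless -1.39 on the log2 scale after acute L-DOPA, against 0.02 over all genes. After chronic L-DOPA it was -1.63 over the 5 cortical markers tested, against -0.01 over all genes. With a score of these markers as a covariate in a fit of all 12 libraries, the acute lesion effect of *Htr2a* was -0.51 (adjusted p = 0.134) and its rise in the lesioned striatum from acute to chronic L-DOPA was 1.09 (adjusted p = 0.000304). Without the 3 libraries that stand apart, the acute lesion effect was -0.76 (adjusted p = 0.00169), the chronic one -0.56 (adjusted p = 0.0435), and the unlesioned sides differed by 0.69 between chronic and acute L-DOPA (adjusted p = 0.00336). With replicate 1 of the acute unlesioned group left out as well, the acute lesion effect was -0.74 (adjusted p = 0.00687) and the unlesioned sides differed by 0.71 (adjusted p = 0.0169).

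**Figure D5:**
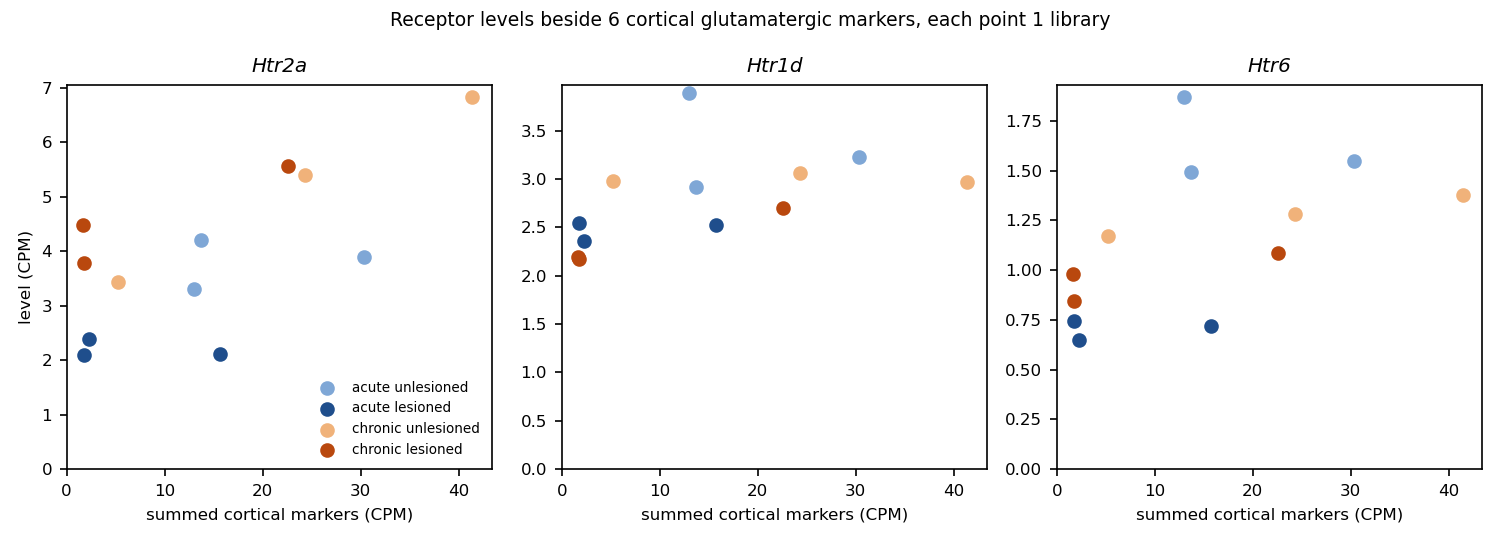
Level of *Htr2a*, *Htr1d* and *Htr6* in CPM (vertical) against the summed level of 6 cortical glutamatergic markers in CPM (horizontal), each point 1 library coloured by group. The *Htr2a* library with the highest level (6.83 CPM) also has the highest cortical sum (41.4 CPM), while the acute lesioned libraries of *Htr6* lie at 0.647 to 0.743 CPM at cortical sums from 1.79 to 15.7 CPM.

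*Htr2c* (plus strand, chrX:143397057-143631820, mm9), whose mRNA undergoes editing that alters its coupling to G proteins, was the member that rose on both sides of the brain. The acute libraries held 14.4, 12.6 and 12.1 CPM on the unlesioned and 9.12, 12.1 and 11.7 CPM on the lesioned side. The chronic libraries held 16.2, 17.8 and 18.1 CPM on the unlesioned and 17.8, 14.3 and 14.8 CPM on the lesioned side. On each side all chronic libraries lay above all acute ones. The rise was 0.51 on the log2 scale in the lesioned (SE 0.12, adjusted p = 0.0103) and 0.42 in the unlesioned striatum (SE 0.08, adjusted p = 0.0267). The lesioned rise was lost without replicate 1 of the chronic lesioned group (0.41, adjusted p = 0.0508) and without the 3 libraries that stand apart (0.30, adjusted p = 0.108), and the unlesioned rise without any of 5 of its 6 libraries (adjusted p = 0.0514 to 0.128) and with the counts summed over all transcripts of the gene (adjusted p = 0.0697). *Htr2c* is also a gene of the choroid plexus. The library with 483 CPM of choroid plexus markers had 17.8 CPM of *Htr2c*, between the other chronic unlesioned libraries, and without it the unlesioned rise was 0.39 (adjusted p = 0.0119). The lesion effect of *Htr2c* was -0.24 after acute (adjusted p = 0.137) and -0.15 after chronic L-DOPA (adjusted p = 0.364), and the difference between them was 0.09 (SE 0.15, adjusted p = 0.79). Of the 8 members whose RefSeq promoters were searched, only *Htr2c* and *Htr7* had a match to any of the motifs. The promoter of *Htr2c*, a called member, is shown because it holds the AP-1 letters once, at positions -198 to -192 relative to the RefSeq start, in capitals below. It is taken from RefSeq for GRCm38.p6 and occurs once in mm9 on the plus strand, at chrX:143396806-143397105.
Htr2c: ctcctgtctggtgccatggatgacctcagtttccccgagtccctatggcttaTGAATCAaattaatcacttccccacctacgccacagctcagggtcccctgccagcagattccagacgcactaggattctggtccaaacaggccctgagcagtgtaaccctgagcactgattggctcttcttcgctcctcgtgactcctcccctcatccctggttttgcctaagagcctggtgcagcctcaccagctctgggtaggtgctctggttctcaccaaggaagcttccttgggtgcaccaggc

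The Gs-coupled receptors *Htr6* and *Htr4* were lower in the lesioned striatum, *Htr6* after acute and *Htr4* after chronic L-DOPA. *Htr6* is a receptor known for its strong expression in spiny neurons, and its gene lies on the minus strand of chr4:138617023-138631485 (mm9). Its levels were 1.55, 1.49 and 1.87 CPM in the acute unlesioned and 0.719, 0.647 and 0.743 CPM in the acute lesioned libraries, without overlap. The log2 fold change of -1.20 (SE 0.13, adjusted p = 9.55e-05) was the largest acute lesion effect among the members, a 2.30-fold lower level, and it passed the test in all 16 alternatives (adjusted p = 1.99e-09 to 0.00174). After chronic L-DOPA the unlesioned libraries held 1.28, 1.17 and 1.38 CPM and the lesioned libraries 1.08, 0.842 and 0.981 CPM, again without overlap but closer together. The chronic lesion effect was -0.40 (SE 0.14, adjusted p = 0.0984), and -0.40 with the replicate block (adjusted p = 0.0412). The lesion effects differed by 0.80 on the log2 scale (SE 0.19, adjusted p = 0.0241). That call was lost without replicate 3 of the acute unlesioned, 1 or 2 of the acute lesioned, 2 of the chronic unlesioned or 1 or 3 of the chronic lesioned group (adjusted p = 0.0637, 0.0548, 0.065, 0.0501, 0.067 and 0.0566), with the counts summed over all transcripts of the gene (adjusted p = 0.0522) and without the 3 or all 4 libraries that stand apart (adjusted p = 0.165 and 0.216). On the separate sides, *Htr6* differed between chronic and acute L-DOPA by 0.45 in the lesioned (adjusted p = 0.0551) and by -0.35 in the unlesioned striatum (adjusted p = 0.136). Markers of spiny neurons moved in both directions after acute L-DOPA. Of 5 markers of D1 spiny neurons 4 were lower and *Tac1* was higher (0.89), and all 5 of D2 spiny neurons were higher, with sums of 873 to 945 against 513 to 600 CPM. Of 4 markers shared by both kinds 3 were lower, with sums of 1040 to 1140 CPM in the lesioned and 1240 to 1490 CPM in the unlesioned libraries. In the difference of lesion effects, 3 of the 5 D1 markers were called as higher, 1 of the 5 D2 markers as lower and no shared marker. The part of these markers in the results of *Htr6* was not tested. In bulk tissue fewer cells of a type and less RNA per cell cannot be told apart.

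The *Htr6* promoter is shown because this gene had the largest acute lesion effect. RefSeq lists 2 starts, and the window of the one at the first base of the counted transcript, on the minus strand at chr4:138631436-138631735 in mm9, is printed from RefSeq for GRCm38.p6. It holds none of the 5 motifs.
Htr6: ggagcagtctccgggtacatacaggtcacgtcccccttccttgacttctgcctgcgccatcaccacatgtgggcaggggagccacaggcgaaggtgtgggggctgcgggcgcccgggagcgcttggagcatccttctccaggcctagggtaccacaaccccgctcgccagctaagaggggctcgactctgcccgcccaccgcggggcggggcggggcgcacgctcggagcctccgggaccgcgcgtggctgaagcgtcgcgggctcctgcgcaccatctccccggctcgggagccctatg

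*Htr4*, which encodes a cAMP-raising receptor of spiny and cholinergic neurons, had low counts, 57 to 176 per library outside the chronic lesioned group and 19, 44 and 32 within it. The levels were 1.01, 0.819 and 0.801 CPM in the acute unlesioned, 0.833, 0.659 and 0.743 CPM in the acute lesioned and 0.558, 0.729 and 0.857 CPM in the chronic unlesioned libraries. The chronic lesioned libraries held 0.217, 0.403 and 0.293 CPM, each below every library of the other groups. After chronic L-DOPA the lesion effect was -1.22 on the log2 scale (SE 0.25, adjusted p = 0.0112), a 2.32-fold lower level. It did not pass without replicate 3 of the chronic unlesioned or replicate 3 of the chronic lesioned group (adjusted p = 0.0595 and 0.0534) or without the 3 libraries that stand apart (-1.03, adjusted p = 0.0594). In the lesioned striatum *Htr4* was lower after chronic than after acute L-DOPA by -1.28 (SE 0.23, adjusted p = 0.00308), and by -1.01 without those 3 libraries (adjusted p = 0.0528). The acute lesion effect was -0.22 (SE 0.15, adjusted p = 0.364). The lesion effects differed by -0.996 (SE 0.29, adjusted p = 0.0701), with an adjusted p of 0.0128 under the replicate block and of 0.0414 in DESeq2. Of 5 markers of cholinergic interneurons, *Chat*, *Slc5a7* and *Lhx8* were lower in the chronic than in the acute lesioned striatum, with sums of 30.9 to 36.6 against 36.1 to 46.7 CPM. In the chronic lesion effect *Slc5a7* was called as lower (-0.35, adjusted p = 0.0305). *Lhx8* (-0.57, adjusted p = 0.0784), *Chat* (-0.31, adjusted p = 0.0854), *Slc18a3* (0.14) and *Ecel1* (0.03) were not called. The sum of the 5 was 34.0 to 41.9 CPM in the chronic unlesioned libraries. The part of these markers in the result was not tested. The promoters of *Htr4* and *Htr3a* were not searched for the motifs, so whether they hold a match is not known here.

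*Htr7*, the third Gs-coupled receptor, passed no test. Its level ranged from 0.674 to 1.38 CPM, and in each of the acute lesioned, chronic unlesioned and chronic lesioned groups a single library lay well above the other two, at 1.38, 1.24 and 1.22 CPM. Its RefSeq promoter held the Egr letters (positions -95 to -87) and, overlapping them, the half-site (-87 to -83), both as reverse complements in the direction of the gene. The lesion effects were 0.37 after acute (SE 0.20, adjusted p = 0.239) and 0.01 after chronic L-DOPA (SE 0.27, adjusted p = 0.986). *Htr3a*, the channel subunit found in some GABAergic interneurons, had 24 to 74 counts per library. The chronic unlesioned libraries held 0.484, 0.402 and 0.499 CPM and the chronic lesioned libraries 0.342, 0.256 and 0.293 CPM, without overlap. The chronic lesion effect of -0.64 (SE 0.21) had an adjusted p of 0.0791, and of 0.0427 with the replicate block. In the same comparison *Sst*, *Npy* and *Th*, 3 of the 7 markers of GABAergic interneurons, were called as higher. The others, *Cck* (-1.51), *Vip* (-1.11), *Pvalb* (-0.61) and *Calb2* (-0.38), had negative values and were not called. The part of these markers in this value was not tested. After acute L-DOPA, replicate 1 of either side lay at 0.171 and 0.182 CPM, below the other 4 libraries at 0.382 to 0.428 CPM.

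Of the other 4 serotonin receptor genes, *Htr1f* lay between 0.231 and 0.468 CPM, with 20 to 63 counts per library, and was tested in all 5 comparisons without a call. *Htr2b* held 0 to 4 counts per library and was not tested because of the filter on low counts. *Htr5b* held 2 to 23 counts and was tested only in the difference of lesion effects, where it was not called (adjusted p = 0.748). *Htr3b*, the second subunit of the HTR3 channel, held 0 to 3 counts in the 9 libraries of the other groups and 10, 14 and 17 counts in the chronic lesioned libraries. The ratio of its level to the chronic unlesioned striatum was 6.31 (95% exact interval for counting error 2.92 to 15.6) and to the acute lesioned striatum 8.74 (3.46 to 28.3). The gene passed the filter on low counts only in comparisons with the chronic lesioned group, where it is high, so no test is given for it.

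Of the 11 genes for the synthesis, transport and breakdown of serotonin, 7 were tested. *Slc22a3*, a low-affinity monoamine transporter, was lower on the lesioned side after acute (-0.53, adjusted p = 0.00315) and after chronic L-DOPA (-0.72, adjusted p = 0.0057), and no other gene of that list was called in these comparisons. *Ddc*, the decarboxylase that makes serotonin and also turns L-DOPA into dopamine, was higher in chronic than in acute libraries of the lesioned (0.84, adjusted p = 0.0158) and the unlesioned striatum (1.14, adjusted p = 0.0459), with replicate 1 of the chronic groups highest at 4.21 and 5.24 CPM. *Maob*, which breaks down monoamines, was lower in the chronic than in the acute lesioned striatum (-0.78, adjusted p = 0.000277). The list had no call in the difference of lesion effects.

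Among 11 receptor partners and editing enzymes, all tested, *S100a10* stood out. Its product, p11, binds HTR1B and HTR4 and brings them to the cell surface. The acute unlesioned libraries held 2.39, 2.08 and 2.23 CPM and the acute lesioned libraries 2.82, 2.66 and 2.81 CPM, whereas the chronic unlesioned libraries held 2.49, 2.13 and 1.97 CPM and the chronic lesioned libraries 1.27, 1.68 and 1.41 CPM. Its lesion effect was 0.32 after acute (adjusted p = 0.0408) and -0.58 after chronic L-DOPA (adjusted p = 0.0261), and the difference between them -0.89 (SE 0.17, adjusted p = 0.00589). Within the lesioned side *S100a10* fell by 0.92 on the log2 scale from acute to chronic L-DOPA (adjusted p = 0.00058). *Adar*, an RNA editing enzyme, was lower on the lesioned side after acute L-DOPA (-0.22, adjusted p = 0.0235). In the lesioned striatum *Mpdz*, a scaffold that binds HTR2C, and *Arrb2*, an arrestin, were lower after chronic than after acute L-DOPA (-0.80 and -0.37), and in the unlesioned striatum *Deaf1*, a transcription factor that acts on *Htr1a*, was higher (0.33, adjusted p = 0.0467).

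The G proteins behind the receptors were measured as 5 Gi/o, 6 Gq and 3 Gs genes. *Gnai3* was higher in the lesioned striatum after acute (1.21, adjusted p = 4.84e-07) and after chronic L-DOPA (1.45, adjusted p = 4.15e-06), from 7.14 ± 0.65 to 16.5 ± 0.59 CPM and from 7.07 ± 0.50 to 19.3 ± 1.7 CPM (SD, n = 3). *Gnai2* was higher by 0.33 and *Gnaz* lower by -0.32 after acute L-DOPA, and *Gnai1*, *Gnai2* and *Gnao1* were lower in the chronic than in the acute lesioned striatum, by -0.38, -0.42 and -0.28. *Plcb1*, the phospholipase of the Gq path, was lower (-0.35) and *Gnas* higher (0.45) on the lesioned side after acute L-DOPA. No gene of the 3 coupling lists was called in the difference of lesion effects.

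The genes whose levels followed those of the 6 called members most closely were looked up over the 12 libraries, among 10671 genes with a mean of at least 1 CPM. For *Htr1b* these were *Lipg*, *Csnk1d* and *Myo3b* (Pearson r = 0.984, 0.983 and 0.983), for *Htr2a* *Asxl2*, *Oprk1* and *Man2a1* (0.973, 0.959 and 0.956), and for *Htr2c* *Map2k4*, *Ddx25* and *Fto* (0.938, 0.933 and 0.926). *Htr6* was followed by *Sap30bp*, *Strn* and *Zfp828* (0.962, 0.96 and 0.955), *Htr4* by *Chrm3*, *Cntn5* and *Dcc* (0.977, 0.966 and 0.965), and *Htr1d* by *Flrt1*, *Slc33a1* and *Camta2* (0.931, 0.913 and 0.911). These values describe the 12 libraries, which share 4 group means, and carry no test.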

How the data were processed

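RNA of striatal punches was sequenced in 12 libraries. Per the labels and the study's methods, the authors used a TruSeq RNA kit, mapped the reads to mm9, tested triplicates with DESeq and deposited unnormalized read counts per transcript. The study does not mention the strand, and the kit was taken here not to mark it. The 3 deposited tables of the authors' comparisons (fold changes and p-values) were not used, nor were 12 columns of normalized values and 36 per-sample columns of the comparison tables. Transcripts without a gene symbol (296, 0.0485% of the counts) were left out.

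Counts were tested in edgeR 4.0.16 (R 4.3.3, limma 3.58.1; filterByExpr by group, TMM, glmQLFTest) on the 6 libraries of 2 groups or, for the difference of lesion effects, on all 12, with Benjamini-Hochberg adjustment over all transcripts and a threshold of 0.05. Every adjusted p in the text comes from this quasi-likelihood test unless DESeq2 1.42.0 is named. An SE is the log2 fold change divided by the square root of its F statistic, and CPM are counts scaled to the TMM-normalized library total. Background shares are over the top transcript of each gene in the same fit. The scripts were tested on simulated data.

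Same-numbered libraries deviated together from their group means between the sides of a treatment (correlation over 12795 genes 0.478, 0.49 and 0.384 after acute, 0.513, 0.573 and 0.16 after chronic L-DOPA, all above 0.1), so the replicate numbers were taken to pair the sides. The labels count a mouse per library, whereas the study describes both sides of each mouse, so p-values measure only the spread between these libraries. Within groups, no replicate repeated another: over genes, the chi-square of the 12 replicate pairs divided by its degrees of freedom was 5.51 to 19.8.

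The members, the gene lists and the tests were chosen with earlier results of these data known. The genes named are the 10 members, list genes called in any comparison or needed to check a label, and for each called member the 3 genes of highest correlation over the libraries (log2 CPM, prior count 2, at least 1 CPM). Alternatives were DESeq2 and its size factors, no filter, a threshold of 0.01, a single transcript or the sum of transcripts per gene, the replicate block, all libraries in a fit with and without a cortical marker score, each library left out and, added after seeing the data, the 3 or 4 libraries apart in cortical markers left out. Intervals and floors cover counting error only, since reads carry no molecular identifiers.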

Additional observations from a re-analysis of the deposited data

Results flagged for a closer look

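Effects of the lesion that differed between acute and chronic L-DOPA, by the interaction term of edgeR over all 12 libraries, were found for *Htr1b* (1.14 on the log2 scale), *Htr6* (0.80), *S100a10* (-0.89) and the antisense neighbour of *Htr1b*, *D430036J16Rik* (0.86). The value of *D430036J16Rik* includes reads of the exon it shares with *Htr1b*.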

How the results depend on the processing

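Each count of members is followed here by the share of all genes called in the same fit. The acute comparison called 3 members (15.3%), and 1 with the cortical marker score as a covariate (6.30%). The chronic comparison called 2 members (13.7%), 1 at an adjusted p under 0.01 (6.65%), 6 with the replicate block (24.2%), 4 in a fit of all 12 libraries (19.2%), and 1 to 3 with each library left out (8.37% to 13.1%). Between chronic and acute lesioned striatum 4 members were called (25.6%), and 2 without the 3 libraries apart in cortical markers (7.47%). Between the unlesioned sides edgeR called 1 member (3.07%), 2 without the libraries of its groups among those 3 (12.1%) or with replicate 1 of the acute unlesioned group left out as well (6.44%), 0 at an adjusted p under 0.01 (0.113%) or with transcripts summed per gene (0.470%), and 0 to 2 with each library left out (0.0679% to 12.1%). DESeq2 called 1 there (5.70%), and 4 members had an unadjusted p under 0.05 on the reported settings. The difference of lesion effects called 2 members (5.10%), 1 at an adjusted p under 0.01 (2.23%), with transcripts summed (4.33%) or without the 3 (2.89%) or 4 libraries (1.98%), 4 with the replicate block (13.4%), and 1 to 3 with each library left out (3.27% to 7.84%). The block changed no call between chronic and acute L-DOPA, where the replicate numbers do not pair the libraries.

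Signs turned in uncalled values only. With the cortical score, the acute lesion effect was -0.0528 for *Htr3a*, 0.0329 for *Htr5a* and -0.00563 for *Htr7*, and the chronic one 0.138 for *Htr2a* and -0.386 for *Htr7*, whose summed transcripts gave -0.000952. Without the 3 libraries the value was 0.0156 for the acute lesion effect of *Htr1a*, -0.0516 for *Htr1a* between chronic and acute lesioned, -0.127 for *Htr7* between chronic and acute unlesioned, and -0.0259 for *Htr1d* and -0.106 for *Htr2c* in the difference of lesion effects. Without all 4 libraries it was 0.0689 for the acute lesion effect of *Htr1a*, -0.107 for *Htr7* between the unlesioned sides and -0.182 for *Htr2c* in the difference of lesion effects. With each library left out, the acute lesion effect ranged from -0.251 to 0.0156 for *Htr1a* and from -0.191 to 0.482 for *Htr3a*, and the chronic one from -0.415 to 0.0555 for *Htr2a* and from -0.287 to 0.319 for *Htr7*. Between chronic and acute lesioned striatum it ranged from -0.122 to 0.235 for *Htr1a*, from -0.53 to 0.0222 for *Htr3a*, from -0.207 to 0.0319 for *Htr5a* and from -0.477 to 0.124 for *Htr7*, and between the unlesioned sides from -0.127 to 0.361 for *Htr7*. The difference of lesion effects ranged from -0.0513 to 0.166 for *Htr1d* and from -0.0259 to 0.167 for *Htr2c*. The cause of these changes was not tested. Of 830 values under an alternative, 747 kept their direction and their side of the threshold. Depth limits the low members: *Htr4* had as few as 19, *Htr3a* 24, *Htr6* 56, *Htr1a* 59 and *Htr7* 61 counts in a library.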
